A study of Mus musculus with 3 samples.

Results

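Cytokines and chemokines are secreted proteins with which tumour cells, stroma and leukocytes signal to each other, and 41 such genes were followed through ATAC-seq data of mouse skin squamous cell carcinoma cells. ATAC-seq counts reads at DNA that Tn5 transposase can enter, so it measures open chromatin and not the transcript or the protein. A deposited region was assigned to 1 of these genes when that gene's body was the nearest protein-coding gene body to the region's midpoint, at most 50 kb away. By this rule 39 of the 41 genes had at least 1 region, out of 16656 genes with a region in all, and they held 197 of 95840 nuclear regions. Cxcl10 and Cxcl11, chemokines induced by interferon, had none. Cxcl11 is listed as a transcribed pseudogene in the RefSeq gene table of this build, and the region over the start of Cxcl10 lies inside the body of Art3 and was assigned there.

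Tumours were induced with DMBA, a mutagen, and TPA, a tumour promoter, in mice of mixed background in which Cre under the keratin 14 promoter, active in basal keratinocytes, switches on a YFP reporter (RYFP). The control genotype was K14Cre;RYFP, and the other genotype was K14Cre;Fat1fl/fl;RYFP, in which the same Cre deletes Fat1, a protocadherin gene. Tumour cells were sorted on Epcam, an epithelial surface protein, into 1 library each of control Epcam+ cells, Fat1 cKO Epcam+ cells and Fat1 cKO Epcam- cells, with 100000 cells collected per library. All 3 groups share the treatment, the Cre and the reporter, both Fat1 cKO libraries carry 1 tumour name, and ages and the number of mice per library are not given in the labels. Each group is a single library without replicates, so no difference between conditions was tested and no p-value is given.

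Keratinocytes are a source of cytokines in skin. They store IL-1 family members, release chemokines that draw neutrophils, T cells and dendritic cells, and send growth factors to macrophages. Transcription factors of the NF-kB, AP-1, STAT and C/EBP families act at many of these genes, and the chemokine genes lie in clusters of related copies, here on chromosomes 5, 8 and 11.

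Nuclear counts were 4335304, 3812880 and 5485317 in the libraries labelled control Epcam+, Fat1 cKO Epcam+ and Fat1 cKO Epcam-, and triplets of values below follow this order of labels. Fat1 summed to 158, 191 and 249 CPM (counts scaled to a common nuclear library size) and Epcam to 67.7, 224 and 132 CPM. Epithelial marker genes (8 of 8 with a region) summed to 295, 1007 and 634 CPM, so the library labelled control Epcam+ was lowest. Fibroblast and pericyte markers (10 of 10) summed to 549, 371 and 221 CPM, highest in that library. Endothelial cell markers (8 of 8) summed to 536, 575 and 424 CPM. Immune cell markers summed to 222, 224 and 197 CPM over the 13 of 20 genes with a region, none at 0. Adgre1, Cd3g, Cd4, Cd8a, Ly6g, Lyz2 and Ms4a1 had no region. The part of these cell types in the results below was not tested, and fewer cells of a type and less open chromatin per cell cannot be told apart in bulk libraries.

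The deposited peak calls and counts disagreed at these genes for 2 of the 3 libraries. A peak call for control Epcam+ alone was given to 33 member regions, and 30 of them had their highest CPM under the name Fat1 cKO Epcam-. A call for Fat1 cKO Epcam- alone was given to 14, and 11 of them peaked under the name control Epcam+. The 16 regions with a call for Fat1 cKO Epcam+ alone all peaked under that same name. Over all nuclear regions, 16893 of 18422 and 9510 of 10758 were crossed in this way. Chromosome Y set the count column named Fat1 cKO Epcam- apart from both others. Its median log2 ratio there was 3.53 over Fat1 cKO Epcam+ and 3.53 over control Epcam+. Ratios against an empty column would be equal in this way, so the size of 3.53 may rest on the prior count added to each value. The number of chromosome Y regions behind these medians is not given here. For Fat1 cKO Epcam+ over control Epcam+ the median was 0.23, although both Fat1 cKO libraries carry the same tumour name. Which column names are right was not tested. Every direction below is therefore a direction between count columns as labelled. Exchanging the column names control Epcam+ and Fat1 cKO Epcam- would change the sign of the third comparison's ratios (Fat1 cKO Epcam- against control Epcam+, described below). The ratios of the other comparisons would trade places with their signs turned.

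**Figure D1:**
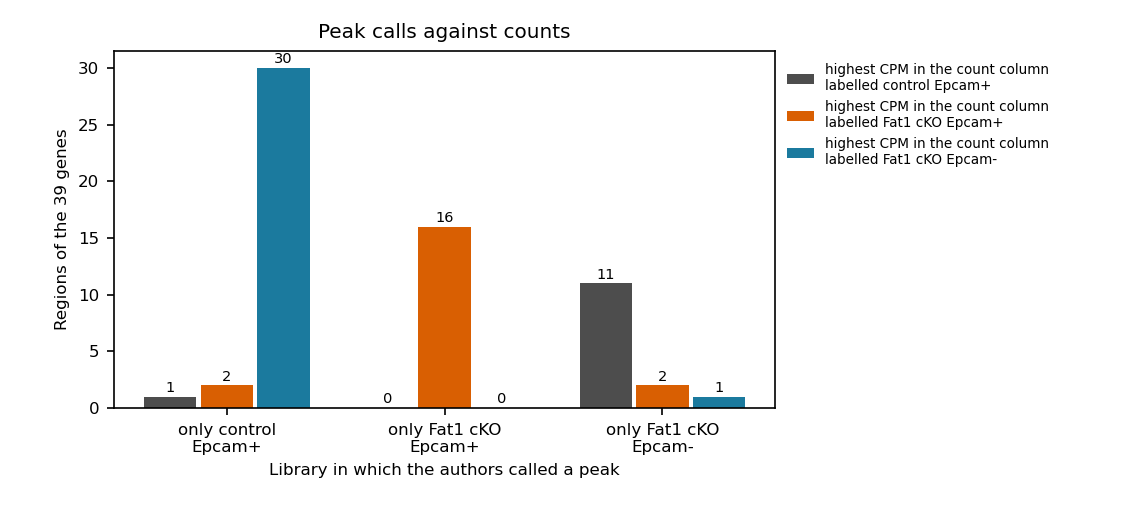
Number of regions of the 39 genes (vertical axis) that the authors called as a peak in 1 library alone (horizontal axis), split by the count column with the highest CPM (bar colours). With a call for control Epcam+ alone, 30 of 33 regions peak under the name Fat1 cKO Epcam-, and the reverse holds for 11 of 14.

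Of the 41 genes, 28 had at least 1 window in the RefSeq promoter table (GRCm38.p6), and at 16 an assigned region lay over such a start. At 6 of those starts the region differed at least 2-fold between 2 libraries, though that of Il18 also covers the start of Bco2. The like share over the start regions of all genes was not computed, so this count only chose which promoters to print. These 6 promoters are printed below. Those of Cxcl1 and Il6, under 2-fold in every pair, are printed beside them. Each line gives the 250 bases before the start, 5′ to 3′, with matches to AP-1 (TGANTCA) and to NF-kB (searched under its name, 10 bases) in capitals.
Ccl20 (chr1:83116516-83116765, plus strand): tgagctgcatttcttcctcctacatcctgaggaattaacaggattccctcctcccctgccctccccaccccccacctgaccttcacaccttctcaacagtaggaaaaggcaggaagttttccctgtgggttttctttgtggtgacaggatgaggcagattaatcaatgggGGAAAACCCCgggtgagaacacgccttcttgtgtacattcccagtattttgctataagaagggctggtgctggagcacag
Cxcl3 (chr5:90785851-90786100, plus strand): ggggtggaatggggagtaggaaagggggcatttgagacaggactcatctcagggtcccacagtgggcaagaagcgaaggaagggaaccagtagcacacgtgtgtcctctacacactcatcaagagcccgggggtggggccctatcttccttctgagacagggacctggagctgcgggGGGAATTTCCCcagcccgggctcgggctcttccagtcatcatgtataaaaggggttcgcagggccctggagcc
Il1rn (chr2:24336610-24336859, plus strand): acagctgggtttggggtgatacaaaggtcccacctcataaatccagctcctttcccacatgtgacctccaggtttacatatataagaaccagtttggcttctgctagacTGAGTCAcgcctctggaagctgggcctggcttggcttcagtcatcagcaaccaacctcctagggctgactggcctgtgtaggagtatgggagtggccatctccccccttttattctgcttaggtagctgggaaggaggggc
Cxcl14 (chr13:56296552-56296801, minus strand): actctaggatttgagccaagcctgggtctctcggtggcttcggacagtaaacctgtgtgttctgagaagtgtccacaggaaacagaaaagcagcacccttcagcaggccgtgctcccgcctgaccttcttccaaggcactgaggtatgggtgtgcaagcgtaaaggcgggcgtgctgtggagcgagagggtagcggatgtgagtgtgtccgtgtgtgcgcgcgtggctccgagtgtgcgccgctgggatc
Il18 (chr9:50554450-50554699, plus strand): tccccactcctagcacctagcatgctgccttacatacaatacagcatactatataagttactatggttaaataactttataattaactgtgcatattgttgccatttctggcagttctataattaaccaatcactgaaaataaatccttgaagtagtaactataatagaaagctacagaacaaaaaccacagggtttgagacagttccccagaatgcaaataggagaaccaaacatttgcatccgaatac
Tnf (chr17:35202008-35202257, minus strand): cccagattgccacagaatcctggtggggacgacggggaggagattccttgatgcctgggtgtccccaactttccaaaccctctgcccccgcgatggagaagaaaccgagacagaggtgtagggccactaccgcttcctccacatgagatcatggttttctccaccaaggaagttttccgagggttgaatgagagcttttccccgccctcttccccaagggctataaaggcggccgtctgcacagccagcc
Cxcl1 (chr5:90890995-90891244, plus strand): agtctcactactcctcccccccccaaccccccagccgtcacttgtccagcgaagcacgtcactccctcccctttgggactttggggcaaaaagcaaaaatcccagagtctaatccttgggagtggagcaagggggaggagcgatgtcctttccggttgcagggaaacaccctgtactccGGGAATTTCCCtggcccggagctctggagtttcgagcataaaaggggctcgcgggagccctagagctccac
Il6 (chr5:30012864-30013113, plus strand): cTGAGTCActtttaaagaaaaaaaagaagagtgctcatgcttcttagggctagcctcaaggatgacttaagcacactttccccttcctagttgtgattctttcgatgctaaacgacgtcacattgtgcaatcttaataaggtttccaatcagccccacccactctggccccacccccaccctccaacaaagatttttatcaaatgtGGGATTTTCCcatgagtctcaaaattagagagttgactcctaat
NF-kB matches lay 80 bases before the start of Ccl20, 73 and 72 bases before that of Cxcl3 and 71 and 70 bases before that of Cxcl1, where each pair overlaps in a single stretch. Il1rn held an AP-1 match 141 bases before its start, and Il6 held one of each kind. The 250 bases of Cxcl14, Il18 and Tnf held neither. TATAAA stood 30 bases before the start of Cxcl3 and 29 bases before that of Tnf. Over the whole 300-base windows and both strands, NF-kB matched 10 of 33 member windows (30.3%) against 11.2% of all 32851 windows, AP-1 8 (24.2%) against 7.81%, and TATAAA 12 (36.4%) against 13.6%. A 10-base pattern of interferon response elements, searched under its name, matched 9.09% against 3.44%. TTCNNNGAA, the STAT pattern, matched 9.09% against 8.30%, and TTGCNNAA, of C/EBP factors, 9.09% against 10.8%. A match is a string of letters and not a bound site.

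By its labels, the first comparison set Epcam+ cells with Fat1 deletion against control Epcam+ cells. With the names control Epcam+ and Fat1 cKO Epcam- exchanged, it would instead set Epcam+ against Epcam- cells under the Fat1 cKO tumour name. In the columns as labelled, 6 of the 39 genes stood 2-fold or more above control Epcam+ in Fat1 cKO Epcam+, and 4 stood 2-fold or more below it. These are 15.4% and 10.3% of the members, beside 7.2% and 4.27% of 15240 genes measured in this pair. The higher genes were Cxcl14, Tnf, Il1rn, Il1b, Tslp and Ccl20, and the lower ones Ccl7, Ccl11, Osm and Ccl2. The members' median log2 ratio was 0.22, beside 0.05 over all genes.

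The second comparison set the column named Fat1 cKO Epcam- against that named Fat1 cKO Epcam+, both under 1 tumour name. There 2 of 38 measured genes, Il19 and Ccl20, were higher by 2-fold or more in the column named Epcam-. Another 5 were lower by as much: Ccl5, Il34, Csf2, Il18 and Lif. The shares were 5.26% and 13.2%, beside 9.49% and 6.28% of 15677 genes, with medians of -0.10 and 0.00. The third set the column named Fat1 cKO Epcam- against that named control Epcam+. In it 9 genes were higher and 7 lower, or 23.1% and 17.9% beside 12.4% and 6.11% of 15758 genes. The medians were -0.16 and 0.07. Of the 39 genes 18 (46.2%) were under 2-fold in every pair, beside 71.5% of 15847 genes. Ccl20 alone (2.56% of the members) was 2-fold apart in all 3 pairs, beside 0.555% of all genes, and 2 of its 3 ratios were near the threshold.

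The library labelled Fat1 cKO Epcam- was the lowest of the 3 for 20 of the 39 genes (51.3%), while it was lowest for 35.1% of 15847 genes. That labelled Fat1 cKO Epcam+ was lowest for 5 (12.8%, against 29.5%). The highest library stood apart from the next, by exact Poisson intervals that cover counting error only, for 18 of the 39 genes (46.2%), beside 33.1% of all genes. By the same intervals the lowest library stood apart from the next for 9 of those 20 genes and 1 of those 5. The like share over all genes was not computed for the lowest library.

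**Figure D2:**
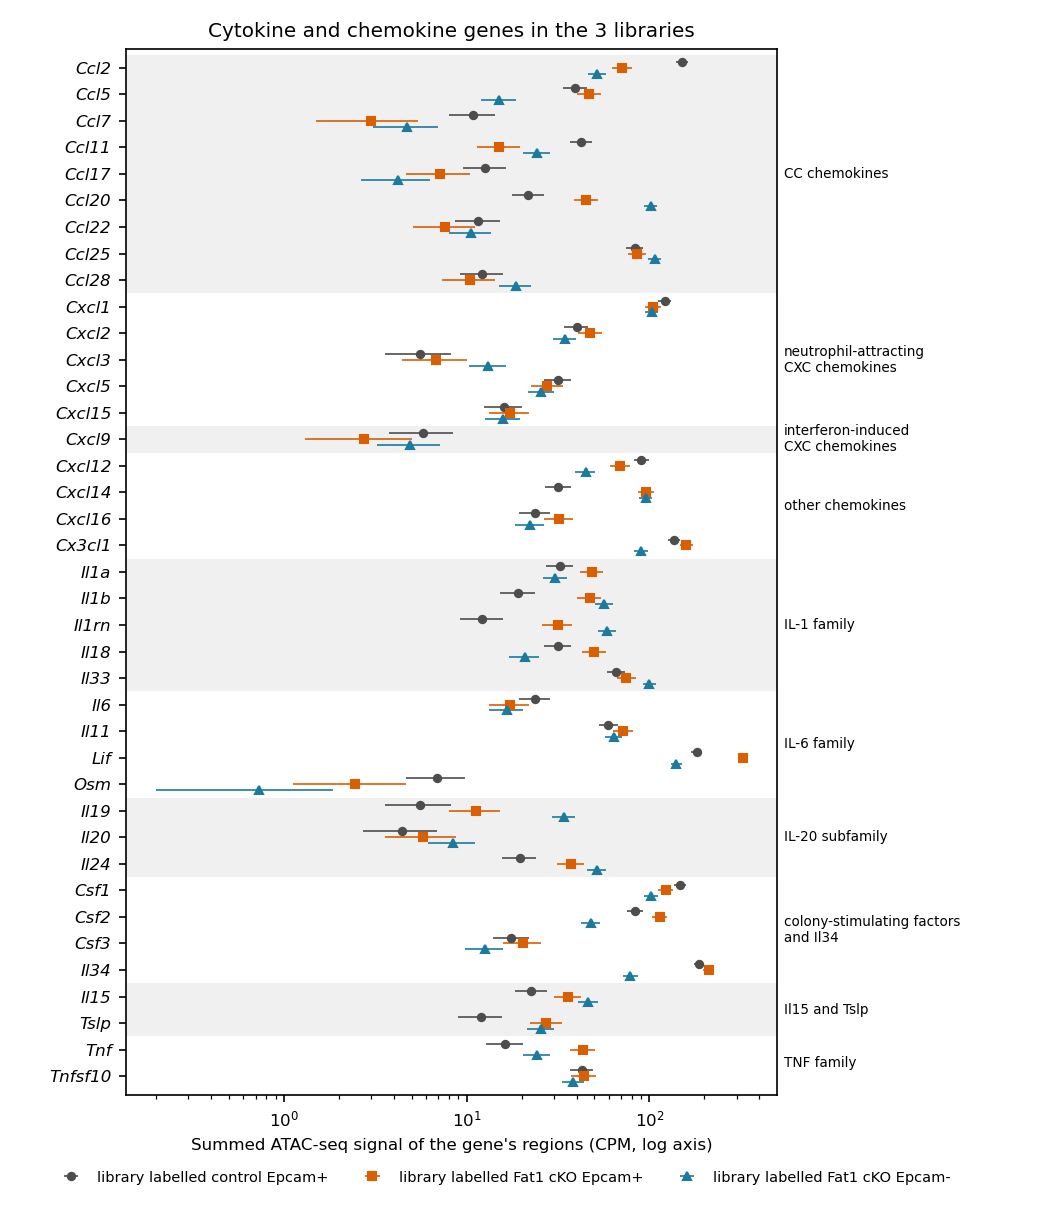
Summed CPM of each of the 39 genes (horizontal, log axis) in the 3 libraries (colours and symbols), grouped by role, with 95% Poisson intervals that cover counting error only. Il1rn, Ccl20 and Il24 step up from the library labelled control Epcam+ (12.2, 21.7 and 19.5 CPM) through that labelled Fat1 cKO Epcam+ to that labelled Fat1 cKO Epcam- (58.7, 102 and 51.6 CPM).

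Among the CC chemokines, Ccl20 was higher and the neighbouring Ccl2, Ccl7 and Ccl11 were lower in the first and in the third comparison, the ones against control Epcam+. Ccl20, which draws cells with the receptor Ccr6, among them Th17 cells and immature dendritic cells, lies on chromosome 1 from 83116766 to 83119167. Its 9 regions held 98, 165 and 559 counts, or 21.7, 45.1 and 102 CPM. Each step exceeded the counting intervals, with log2 ratios of 1.04 (95% interval 0.68 to 1.43), 1.16 (0.92 to 1.43) and 2.20 (1.91 to 2.55) for the first, the second and the third comparison. The first was under 2-fold with total counts (0.92) and the second with chromosome medians at 0 (0.96). The region over its start, whose promoter is the first printed above, held 5, 8 and 38 counts. The region 16.7 kb from the gene (chromosome 1, 83135688 to 83136046) held 2, 8 and 42 counts, the largest ratio of the third comparison among the single regions (log2 ratio 3.19, 2.16 to 7.20). By CPM, 7 of the 9 regions peaked in the Fat1 cKO Epcam- column, and the exceptions held 7, 17 and 11 counts and 6, 9 and 13 counts.

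Ccl2, Ccl7 and Ccl11 lie side by side on chromosome 11 and were highest in the library labelled control Epcam+. Ccl2, the chief attractant of monocytes, stood at 151, 71.1 and 51.8 CPM over 8 regions, 2.12-fold lower in the first comparison (log2 ratio -1.08, -1.30 to -0.88) and 2.90-fold lower in the third (-1.54, -1.75 to -1.34). Ccl11, or eotaxin, the eosinophil attractant, stood at 42.4, 15.0 and 24.2 CPM, with a log2 ratio of -1.47 (-1.95 to -1.05) in the first comparison and -0.80 in the third. Ccl7 held 49, 11 and 26 counts in 2 regions, with a wide interval (-1.71, -2.95 to -0.89). The sum of the fibroblast and pericyte markers had the same order as Ccl2, at 549, 371 and 221 CPM, though 5 of the 10 markers did not, among them Rgs5 at 19.1, 44.0 and 12.7 CPM. Their part in the result was not tested.

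Single regions of this cluster did not all follow the sums. A region of chromosome 11 from 82073259 to 82074215, 10.8 kb from Ccl11, held 32, 9 and 87 counts, so there the Fat1 cKO Epcam- column was highest. The region from 82011558 to 82012603, 23.5 kb from Ccl2, held 175, 39 and 51 counts, and that from 82066717 to 82068087, 4.45 kb from Ccl11, held 145, 30 and 44. Both were more than 3-fold lower in the first and in the third comparison.

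Ccl5, or RANTES, an attractant of T cells, stood at 39.3, 46.8 and 15.1 CPM. It was near level in both columns named Epcam+ (0.25, -0.06 to 0.56) and 3.04-fold lower in the second comparison (-1.60, -2.03 to -1.24). Inside its body a region of 8, 31 and 13 counts differed between the columns named Epcam+ by 4.03-fold. Ccl17, a ligand of Ccr4 on T cells, held 57, 26 and 23 counts and was 2.83-fold lower in the third comparison (-1.50, -2.36 to -0.87). Its fellow Ccr4 ligand Ccl22 stood at 11.5, 7.66 and 10.5 CPM, with intervals that overlap in every pair.

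Ccl25 and Ccl28, chemokines of mucosal and other epithelia, were under 2-fold in every pair. Ccl28 stood at 12.2, 10.4 and 18.5 CPM. Most counts of Ccl25 came from 1 region over its start, at 75.9, 77.1 and 77.3 CPM, which also covers the start of Elavl1, a widely used RNA-binding protein gene. Its other regions lie 41.6 and 44.6 kb away and held 8, 10 and 69 counts and 24, 22 and 94 counts.

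The CXC chemokines that attract neutrophils through Cxcr2 were near the background in their calls. Of 5 such genes none was 2-fold apart in the first or second comparison, where 7.2% and 9.49% of all genes were higher and 4.27% and 6.28% lower. In the third 1 gene, Cxcl3, was higher, beside 12.4% of all genes. Cxcl1 stood at 121, 105 and 103 CPM, Cxcl2 at 39.9, 47.6 and 34.4 CPM and Cxcl5 at 31.5, 27.6 and 25.6 CPM. Cxcl15, known from lung epithelium, stood at 16.0, 17.2 and 15.8 CPM, with log2 ratios between -0.12 and 0.11. The region over the start of Cxcl1, which carries the NF-kB matches printed above, held 207, 132 and 140 counts. Cxcl3, with like matches, held 25, 25 and 72 counts in its 1 region, over its start, and was 2.26-fold higher in the third comparison (1.18, 0.56 to 1.96), but at 0.97 with chromosome medians at 0.

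Of the interferon-induced chemokines, which attract T cells through Cxcr3, Cxcl9 alone had regions. It held 26, 10 and 27 counts, with log2 ratios of -0.97 (-2.29 to 0.02) and 0.75 (-0.25 to 2.06) in the first and second comparison, both with intervals over 0. The region over the start of Cxcl10, assigned to Art3, held 70, 50 and 68 counts.

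Cxcl14, a chemokine made by normal epidermis, was higher in both columns named Fat1 cKO than in that named control Epcam+. Its 9 regions summed to 31.7, 96.0 and 95.5 CPM, with log2 ratios of 1.58 (1.31 to 1.89) in the first comparison, -0.01 (-0.21 to 0.19) in the second and 1.58 (1.32 to 1.87) in the third. The even sums of the second comparison hid regions that went opposite ways. A region 27.5 kb away (chromosome 13, 56323901 to 56324739) held 19, 17 and 142 counts, 5.16-fold higher in the second comparison. Another, 7.58 kb away (56303823 to 56304967), held 16, 55 and 10 counts, 6.86-fold lower. At the start of the gene the counts were 28, 63 and 136.

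Cxcl12, the ligand of Cxcr4 that stroma makes in abundance, stood at 90.5, 69.2 and 44.7 CPM over 12 regions and was 2.01-fold lower in the third comparison (-1.01, -1.25 to -0.78). It was under 2-fold over regions within 1 kb of a gene end (-0.81) and with chromosome medians at 0 (-0.75). A region 26.0 kb from the gene held 65, 21 and 7 counts, 8.68-fold lower in the third comparison. The 2 transmembrane chemokines were under 2-fold, with Cx3cl1, which binds monocytes and T cells, at 137, 159 and 89.6 CPM and Cxcl16 at 23.7, 32.0 and 22.2 CPM.

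**Figure D3:**
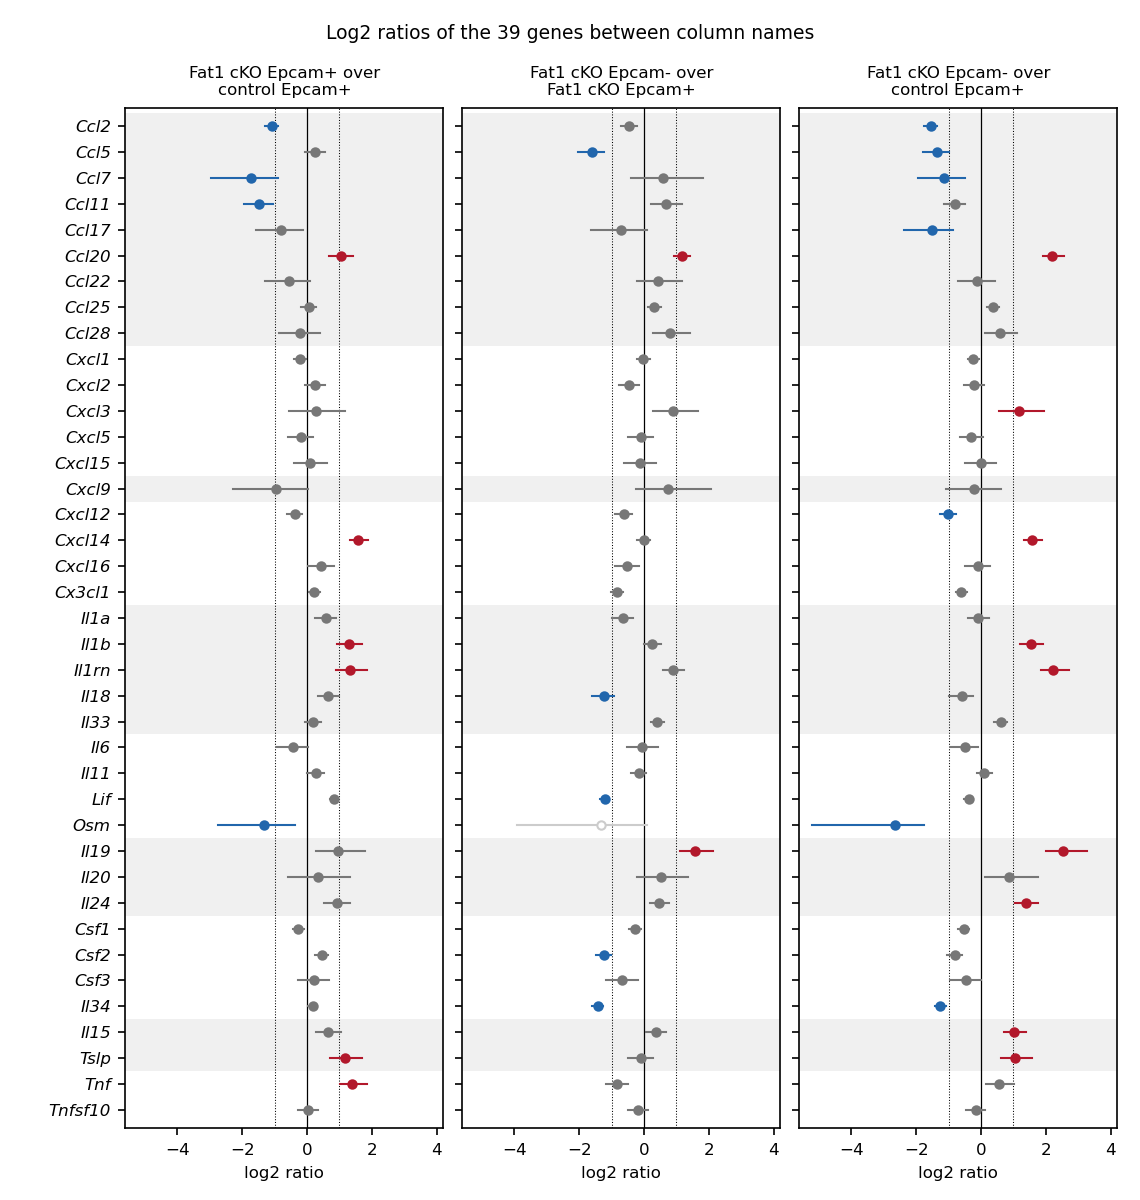
Log2 ratios of the 39 genes (rows, in the order and grouping of the plot of levels) in the 3 comparisons (panels), with 95% Clopper-Pearson intervals that cover counting error only and dotted lines at 2-fold. Red marks genes at least 2-fold higher, blue at least 2-fold lower, grey under 2-fold, and the open symbol Osm with too few counts; Ccl20 is red in all 3 panels.

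In the IL-1 family, Il1b and its antagonist were higher in the first and in the third comparison, and Il18 was lower in the second. Il1b, the secreted inflammatory cytokine, held 86, 172 and 310 counts, or 19.1, 47.0 and 56.4 CPM, with log2 ratios of 1.28 (0.92 to 1.69), 0.26 (-0.01 to 0.54) and 1.54 (1.21 to 1.93). Il1rn, which encodes the receptor antagonist that blocks IL-1 and which keratinocytes make, stood at 12.2, 31.4 and 58.7 CPM and was 4.68-fold higher in the third comparison (2.23, 1.85 to 2.71). The start region of Il1rn, with the AP-1 match printed above, held 28, 67 and 141 counts. Inside the gene a region of 21, 13 and 133 counts was 6.17-fold higher in the second comparison. None of the regions of Il1b lay within its body, and all 5 were 26.1 kb or more away. The chromosome they share, 2, had a median log2 ratio of 0.41 in the third comparison, and with that median at 0 Il1rn stood at 1.81 and Il1b at 1.13.

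Il1a, the IL-1 that keratinocytes store, held 146, 177 and 168 counts, or 32.4, 48.4 and 30.5 CPM. Il33, an alarmin of barrier cells, stood at 65.7, 74.9 and 100.0 CPM over 15 regions, the most of any member. Its regions went both ways. One inside the gene (chromosome 19, 29960453 to 29960869) held 4, 30 and 1 counts, one 35.8 kb away held 10, 3 and 55, and one 2.05 kb away held 30, 2 and 5. Il18, which is made as a precursor in keratinocytes, stood at 31.5, 49.8 and 20.7 CPM and was 2.37-fold lower in the second comparison (-1.25, -1.61 to -0.92). The region over its start held 80, 111 and 45 counts (-1.84, -2.42 to -1.38) and also covers the start of Bco2. Without it the log2 ratio was -0.61, and a region inside the gene stood at -0.64 (-1.17 to -0.14).

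The IL-20 subfamily, 3 neighbouring genes on chromosome 1 whose products act on keratinocytes, was lowest in the library labelled control Epcam+ and highest in that labelled Fat1 cKO Epcam- at each gene. Il19 held 25, 41 and 187 counts in 2 regions, or 5.55, 11.2 and 34.0 CPM, 5.75-fold higher in the third comparison (2.52, 2.01 to 3.28). Il24 stood at 19.5, 37.2 and 51.6 CPM (1.38, 1.05 to 1.77). Il20 held 20, 21 and 46 counts in 1 region, with a log2 ratio of 0.85 (0.13 to 1.75), and the Poisson intervals of its levels overlap in every pair. Of the 3 genes 2 were at least 2-fold higher in the third comparison, beside 12.4% of all genes. Within 100 kb of this subfamily, Fcamr, Fcmr and Il10 had log2 ratios of 1.74, 0.79 and -0.31 in that comparison.

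IL-6 family genes differed among themselves. Lif, which encodes leukaemia inhibitory factor, was highest in the library labelled Fat1 cKO Epcam+, at 182, 325 and 141 CPM over 13 regions, and was 2.31-fold lower in the second comparison (-1.21, -1.34 to -1.08), though at -0.94 with chromosome medians at 0. Inside the gene a region of chromosome 11 from 4260853 to 4262378 held 76, 281 and 217 counts, 4.47-fold higher in the first comparison. The region next to it, 4262982 to 4263444, held 81, 176 and 56. Another, 24.4 kb away, held 36, 62 and 7, which is 10.2-fold lower in the second comparison. Neighbouring Osm, the oncostatin M gene, expressed mostly by leukocytes, held 31, 9 and 4 counts. Its log2 ratio was -2.65 (-5.20 to -1.74) in the third comparison on those few counts.

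Il6 and Il11 were under 2-fold in every pair. Il6 stood at 23.5, 17.2 and 16.5 CPM, mostly in the region over the start, with 89, 50 and 61 counts. Il11 stood at 59.7, 71.6 and 64.0 CPM, and the region over 1 of its starts held 200, 209 and 291 counts.

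**Figure D4:**
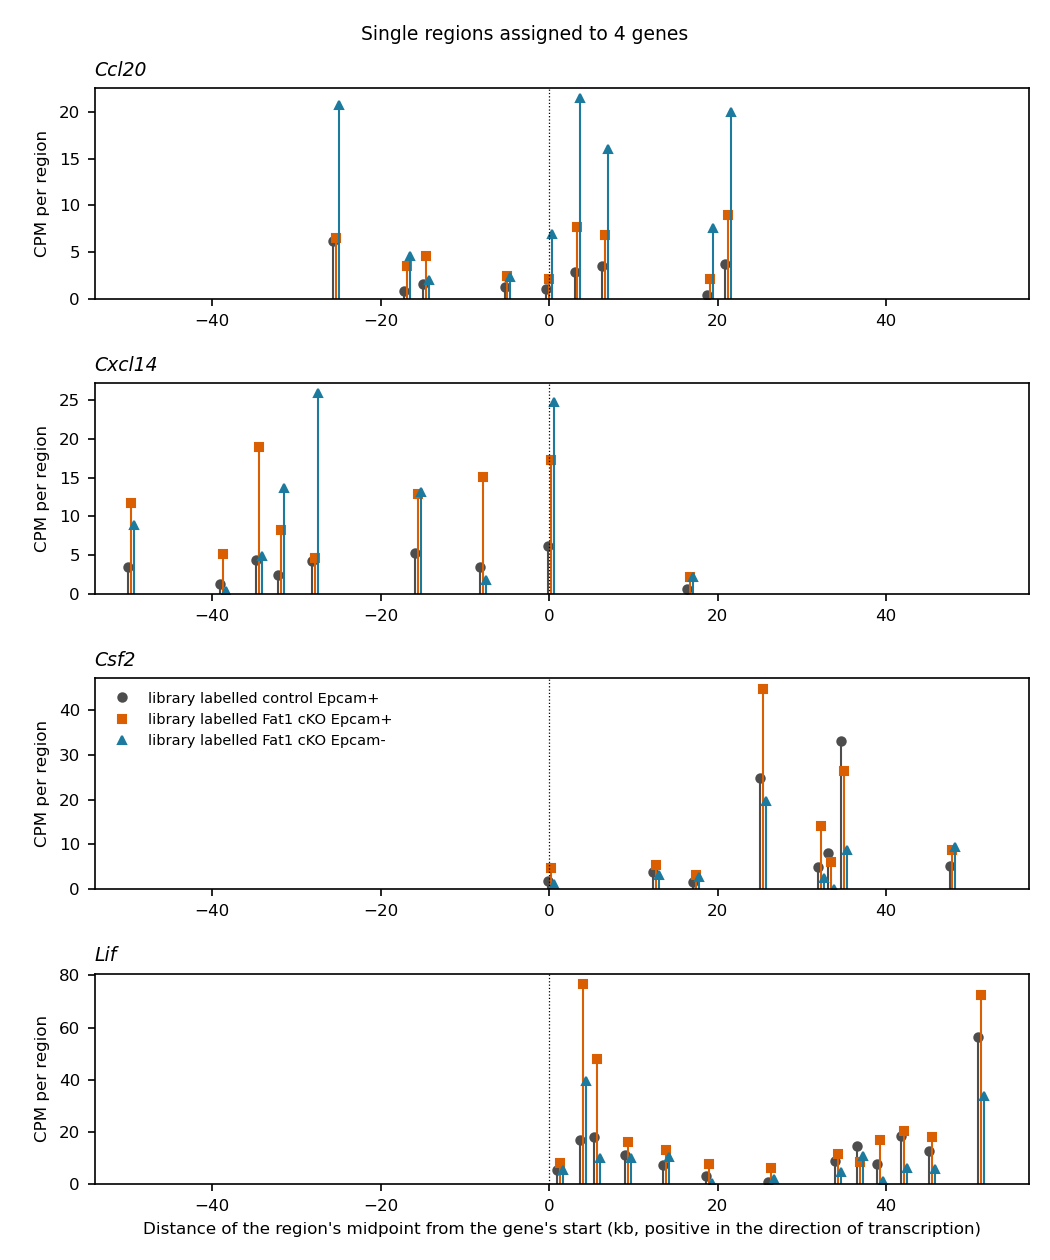
CPM of each single region (vertical axis) assigned to Ccl20, Cxcl14, Csf2 and Lif against the distance of its midpoint from the gene's start (horizontal axis, kb) in the 3 libraries (colours and symbols). The symbols of a region are set side by side. Of 9 regions of Ccl20, 7 have their highest value in the column named Fat1 cKO Epcam-. Those of Cxcl14 differ from one another in which column named Fat1 cKO is higher.

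Growth factor genes of myeloid cells had their lowest values under the name Fat1 cKO Epcam-. That column was also the lowest for 51.3% of the 39 genes and 35.1% of all genes. Il34, a ligand of the Csf1 receptor that keratinocytes make for Langerhans cells, stood at 187, 211 and 78.6 CPM over 8 regions, all inside its body. It was 2.68-fold lower in the second comparison (-1.42, -1.60 to -1.26) and 2.38-fold lower in the third (-1.25, -1.42 to -1.08). Csf2, which encodes GM-CSF, stood at 83.2, 114 and 47.6 CPM, with -1.25 (-1.48 to -1.03) in the second comparison, though -0.98 with chromosome medians at 0. Nearly all of its counts lay away from the gene, and the region over its start held 8, 17 and 7.

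A region 30.9 kb from Csf2 (chromosome 11, 54216210 to 54216533) held 37, 22 and 0 counts. Read as up to 3 counts in that library, the 0 makes it at least 15.0-fold lower in the third comparison, the lowest of the single regions there. Csf1, the macrophage growth factor gene, stood at 148, 123 and 102 CPM, under 2-fold in every pair, and a region 12.5 kb from it held 65, 18 and 7 counts. Csf3, which encodes the neutrophil growth factor G-CSF, held 79, 74 and 69 counts in 1 region, or 17.5, 20.2 and 12.5 CPM. The Poisson intervals of its lowest level and the next overlap.

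Tslp and Il15 were both higher in the third comparison. Tslp, with which keratinocytes prime dendritic cells for type 2 responses, stood at 12.0, 27.3 and 25.5 CPM, with log2 ratios of 1.16 (0.70 to 1.70) in the first comparison and 1.06 (0.62 to 1.57) in the third. Over regions within 10 kb these were 0.74 and 0.91, and with chromosome medians at 0 the ratio of the third comparison was 0.93. Il15, which sustains T and NK cells in epithelia, stood at 22.6, 35.8 and 46.4 CPM, 2.03-fold higher in the third comparison, and was under 2-fold with RLE factors (0.98), total counts (0.97) and the median over its regions (0.81). A region 5.74 kb from Il15 held 4, 6 and 52 counts.

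Tnf, the tumour necrosis factor gene, was highest in the library labelled Fat1 cKO Epcam+. It stood at 16.2, 43.2 and 24.2 CPM in 3 regions, 2.62-fold higher in the first comparison (1.39, 1.01 to 1.84) and 1.77-fold lower in the second (-0.83, -1.18 to -0.50). The region over its start held 21, 60 and 35 counts. Tnfsf10, which encodes the death ligand TRAIL, stood at 42.6, 43.7 and 38.2 CPM, and its 3 ratio intervals all included 0.

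Counted by region, 32 of 130 measured member regions were at least 2-fold higher and 15 lower in the first comparison, 24.6% and 11.5% beside 18.8% and 16.3% of all regions. In the second these were 31 and 40 of 142, 21.8% and 28.2% beside 25% and 17.5%. In the third they were 44 and 34 of 141, 31.2% and 24.1% beside 28.4% and 19.3%. Regions of opposite direction, each by 2-fold or more, stood at the same gene for 4 of the 19 genes with such a region in the first comparison, 8 of 28 in the second and 7 of 30 in the third. These shares of 21.1%, 28.6% and 23.3% lie near the 19.4%, 23.0% and 25.6% of all genes with such a region. Il33 was among them each time.

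Regulators of these genes were read from the same table. Of 30 genes of NF-kB, STAT and C/EBP signalling, such as Rela, Nfkbia, Stat3 and Cebpb, none was at least 2-fold apart among the 28, 29 and 29 measured in the 3 comparisons, with medians of 0.17, -0.12 and -0.09. The shares of all genes were 7.2%, 9.49% and 12.4% higher and 4.27%, 6.28% and 6.11% lower, and the difference from them was not tested. Chemokine and cytokine receptors were 2-fold higher in 3, 7 and 4 cases and 2-fold lower in 3, 3 and 6, of 32, 34 and 34 measured. That is 9.38%, 20.6% and 11.8% higher and 9.38%, 8.82% and 17.6% lower, beside those same shares of all genes. Of 38 receptor genes 35 had a region, and Ccr6, Csf2rb and Csf3r had none. In the first comparison the scavenging receptor Ackr4 and Il22ra1, a receptor chain for IL-20 and IL-24, were highest at log2 ratios of 1.27 and 1.20. Cxcr4, the receptor of Cxcl12, and the scavenger Ackr2 were lowest at -2.06 and -1.65.

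Cxcr4 stood at 53.7, 12.6 and 34.2 CPM. Il7r, a chain of the Tslp receptor, stood at 2.88, 3.01 and 16.5 CPM and was highest among the receptors in the second and the third comparison (2.30 and 2.35). Ackr2 followed in the second (1.97) and Ccr2, the receptor of Ccl2, in the third (1.79, on 5 against 27 counts). Cxcr6, the receptor of Cxcl16, was lowest in both (-2.35 and -2.74), at 9.76, 7.38 and 1.09 CPM. Next were Il18r1 in the second (-1.18) and Il1rl1, the Il33 receptor gene, in the third (-1.45).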

How the data were processed

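ATAC-seq was measured in 3 libraries, 1 per group. The authors deposited raw counts over merged regions (95840 nuclear, 2 mitochondrial) and yes or no peak calls per library. The submitters' processing notes name MACS2 2.1.0.20151222, Bowtie2 2.2.6, Picard and SAMtools and the build mm10 (GRCm38), without saying what each was for. No counting tool, filter, Tn5 shift or peak threshold is given in the sources used here. Coordinates are printed as deposited. The files do not say whether starts count from 0 or 1.

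The 2 mitochondrial regions were left out, leaving 60.9%, 57.4% and 59.0% of the counts. Counts were scaled with TMM factors (edgeR 4.0.16, R 4.3.3). CPM, log2 ratios with a prior count of 2 and exact 95% intervals (Poisson for levels, Clopper-Pearson for ratios) were computed in Python 3.11.15. Intervals cover counting error only and leave out differences between mice, tumours and preparations. Reads that carry no molecular identifier may be copies of 1 molecule, so the intervals may be too narrow even for counting error. Gene values are sums over assigned regions, and sums of different genes were not compared. A gene or region needed 20 counts in 1 of 2 libraries, and 2-fold was the threshold; for a 0, 3 counts were taken as the upper limit. Where gene bodies overlapped, the one with the closest end took the region.

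The members and lists were chosen with earlier results of these data known. All members are described. For each pair the rule for single regions took the 5 highest and 5 lowest with at least 30 counts, not all of which are printed, and for other lists 2 genes per side; further regions were chosen after their values were seen. Scripts were tested on simulated data.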

Additional observations from a re-analysis of the deposited data

How the results depend on the processing

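Scaling, the filter on low counts, the prior count, the distance limit, the way regions are combined and the regions admitted were each changed in turn, 11 alternatives in all. Of 33 calls of 2-fold or more, 23 stayed at 2-fold or more in the same direction in every alternative that gave a value, and none changed direction in any. Of 10 calls in the first comparison 8 stayed so, of 7 in the second 3, and of 16 in the third 12. Of 99 values of the counts and medians, 92 stayed within wide limits. For a count these were a set fold around the first value, and for a median the medians of the members' interval limits. Within them, the third comparison's median went from -0.16 to -0.39 with chromosome medians at 0. Equal counts could also hold other genes. Over regions within 10 kb, 6 genes were again higher in the first comparison, but only 4 were the same. The number of genes at least 2-fold lower in the first comparison was 4 and became 2 with at least 50 counts required and 1 over regions within 1 kb of a gene end. That at least 2-fold higher in the second was 2 and became 1 with chromosome medians at 0 and 1 within 1 kb of a gene end. That at least 2-fold lower in the second was 5 and became 2 within 1 kb of a gene end and 8 as a median over regions. That at least 2-fold lower in the third was 7 and became 2 within 1 kb of a gene end, of which 1 was among the 7. Fewer members, 20 in the third comparison, had enough counts there. Total-count scaling shifted all ratios of the first comparison by -0.12. No paired analysis was possible because each group has 1 library, and for the same reason no library could be left out. Depth limits the genes with few counts, such as Osm, Cxcl9, Il20 and Cxcl3.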

Other observations

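Genes beside the members were read after the members' values were seen. Within 100 kb of a member lay 118 other protein-coding genes with a region. In the third comparison 11 of 112 measured neighbours stood 2-fold or more higher and 7 as much lower. These shares of 9.82% and 6.25% do not exceed the 12.4% of all genes on the higher side and are close to the 6.11% on the lower side. The genes below are single values picked for their size. The thiamine transporter gene Slc19a3, next to Ccl20, held 48, 40 and 260 counts in the libraries labelled control Epcam+, Fat1 cKO Epcam+ and Fat1 cKO Epcam-, a log2 ratio of 2.11 in the third comparison. Beside Il1rn, the IL-1 family genes Il1f10 and Il1f5 held 21, 44 and 170 counts and 18, 19 and 82 counts. Fcamr, an immunoglobulin receptor gene beside Il24, held 94, 208 and 388 counts. Next to Il34, Sf3b3, a splicing factor gene, held 333, 197 and 58 counts, and its log2 ratios of -2.31 in the second and -2.76 in the third comparison were larger than those of Il34. At the chemokine cluster of chromosome 11, Ccl8 held 109, 43 and 106 counts.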
